A study of Mus musculus with 12 samples.

Results

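The comparison described here set the strong agonist peptide MCC against the weak agonist peptide 102S at the lower of the study's doses, 0.2 µg, in mouse T cells responding in vivo. Its members were the 6 arrays labelled with that dose, 3 of MCC and 3 of 102S, out of 12 arrays in the study. The other 6 arrays carried the same peptides at 2 µg. The features compared were the 20380 probe sets with 1 gene symbol out of 22690 on the array, of which 12423 were bright enough to test, representing 7945 genes.

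Both groups were made of 5CC7 cells, T cells that carry a transgenic T cell receptor against moth cytochrome c. Each B10.A recipient had received these cells through the tail vein, then 0.2 µg of MCC or 102S in PBS by the same route. After 48 h, lymph nodes were pooled and the 5CC7 cells were sorted by flow cytometry. Every group therefore shares the receptor transgene, the host strain, the transfer and the time, and differs by peptide. No cells without peptide were analysed here, so a gene that is lower with MCC may have fallen with MCC or risen with 102S, and likewise in the other direction. Because lymph nodes were pooled, the labels do not tie an array to an animal, and the p-values measure the spread between these samples, which may be technical.

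A T cell receptor engages peptides bound to MHC class II molecules, and agonist strength describes how effectively a peptide triggers it. Triggered CD4 T cells leave quiescence, enter the cell cycle, and exchange the receptors of a resting, recirculating cell for costimulatory, inhibitory and cytokine receptors of an activated cell. The labels name MCC the strong and 102S the weak agonist of this receptor, and the comparison asks which transcripts follow that difference when little peptide is given.

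The arrays carried T cell transcripts. Cd3e, a chain of the receptor complex, was at log2 10.02, 10.04 and 10.08 with MCC and 10.01, 10.22 and 10.17 with 102S, and Cd4 was at 7.55, 6.80 and 7.18 and 7.07, 7.37 and 6.94. Neither passed the test (limma, adjusted p = 0.579 and 0.89). Markers of B cells and myeloid cells were mostly dim, unlike those of class II antigen presentation and of CD8 T and NK cells. In each of the latter lists 3 of 9 markers lay under the filter level. Their summed linear levels were 3505 to 4133 and 462 to 607 with MCC, and 2386 to 2600 and 910 to 1070 with 102S. Of the B cell markers 11 of 16 lay under the filter level, among them Cd79a, Ms4a1 and Pax5, and of the myeloid markers 14 of 23, among them Itgam, Itgax and Adgre1. The summed linear level of the B cell list, which Ighm dominated, was 1810 to 1970 with MCC and 2923 to 3329 with 102S, and that of the myeloid list 659 to 822 and 724 to 952. The sum and the median over genes differed in direction. Of the 5 tested B cell genes 1 was higher (Cd79b) and 1 lower (Ighm) with MCC, and the median was 0.45 log2. Xist, which is transcribed in female cells, was high on the replicate 1 array of both peptides, at 12.27 with MCC and 11.72 with 102S, and lay between 4.17 and 4.58 on the other 4. The β-actin 3′ probe set exceeded the 5′ one by 0.74, 1.78 and 2.33 log2 on the MCC arrays and by 0.76, 0.90 and 2.35 on the 102S arrays, so replicate 2 differed between the peptides while replicates 1 and 3 were alike.

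At 0.2 µg the peptides gave widely different transcript levels. In 1280 of 7945 genes (16.1%) the difference passed an adjusted p of 0.05 in limma, and 722 (9.09%) of them were higher and 558 (7.02%) lower with MCC. After centring each array on its own median the calls among probe sets were 957 higher and 1188 lower, or 44.6% higher, against 1064 and 875, or 54.9%, in the values as deposited, so small differences do not have a settled balance. The large differences lay on the MCC side. At least a 4-fold difference was seen in 93 of the genes that were higher and in 11 of those that were lower, and at least an 8-fold difference in 33 and 3. The 3 MCC values did not overlap the 3 of 102S in 2484 genes (31.3%), and 1238 of the called genes were among them. The median difference over all genes was -0.014 log2. With only replicates 1 and 3, whose β-actin differences match, 640 probe sets were called in place of 1939, 478 of them higher and 162 lower.

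**Figure D1:**
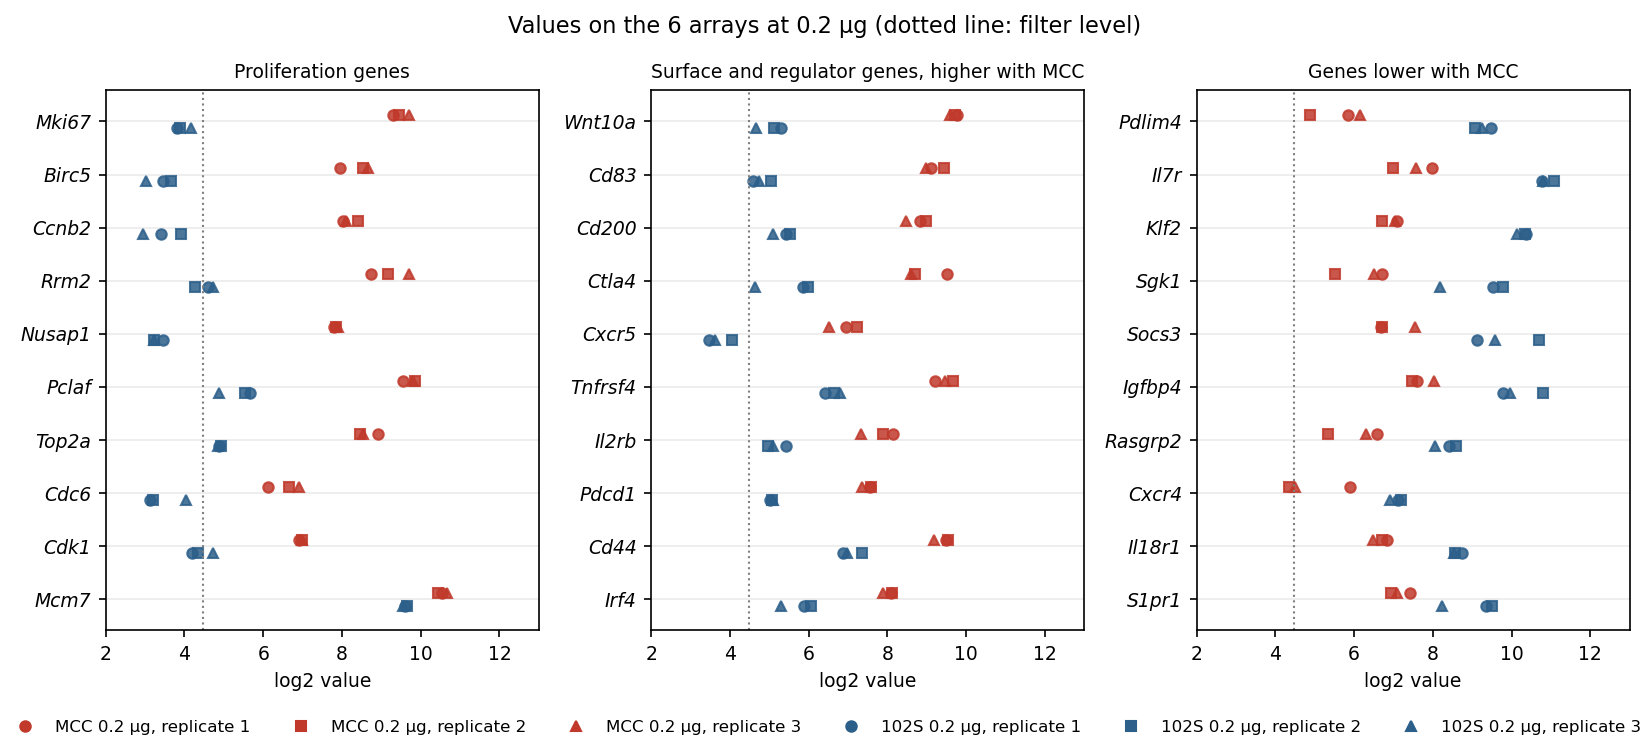
Log2 values of 30 genes on the 6 arrays at 0.2 µg, MCC in red and 102S in blue, with a marker shape for each replicate. The dotted line is the filter level of 4.48, under which a value was treated as only an upper limit of the level. The MCC and 102S values of each of these genes lie apart without overlap, which was required of genes picked for the largest differences.

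Proliferation genes were prominent among the largest differences. Mki67, whose protein marks dividing cells, was at log2 9.31, 9.46 and 9.69 with MCC and at 3.82, 3.88 and 4.17 with 102S. All of its 102S values lay under the filter level of 4.48, so the difference of 5.53 ± 0.24 log2 (SE, 3 arrays a group; adjusted p = 1.35e-07) is a lower limit and no fold is given. Of the 25 genes with the highest differences, 13 stood on cell cycle lists. With 102S Mki67 thus read in the range of genes left out as too dim, and with MCC well above it.

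Mitosis genes were higher with MCC almost throughout. In the list of spindle motors and microtubule factors 17 of 20 tested genes were called higher and 0 lower, with a median difference of 1.90 log2. In the kinetochore and centromere list the count was 14 of 17 and the median 1.68, and among the mitotic kinases, cyclins and phosphatases 14 of 19 and 1.70. These shares stand beside 9.09% called higher among all genes, and the 3 lists kept between 13 and 17 such calls when any array at 0.2 µg was left out. In 30 of the 56 genes of these lists, and in 179 of all 7945, the 102S mean lay under the filter level and the difference is a lower limit. The filter used the mean over all 12 arrays, so a gene dim with 102S was kept only where other groups were brighter, and the count is partly set by it.

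Ccnb2, a B-type cyclin that drives entry into mitosis, was at 8.02, 8.41 and 8.11 with MCC against 3.40, 3.91 and 2.95 with 102S. Its kinase Cdk1 was at 6.91, 6.99 and 6.996 against 4.20, 4.34 and 4.72, a difference of at least 2.55 ± 0.20 log2. Birc5, the survivin subunit of the chromosomal passenger complex, was at 7.94, 8.53 and 8.67 against 3.44, 3.65 and 3.03. In each of these the 102S group mean was too dim for a fold. Nusap1, which bundles spindle microtubules, was at 7.80, 7.84 and 7.91 against 3.47, 3.23 and 3.22, a difference of at least 4.54 ± 0.23 log2. Bub1b, a kinase of the spindle checkpoint, was at 6.54, 6.80 and 6.85 and 4.04, 4.49 and 4.25, and the kinetochore genes Nuf2 and Cenpf were higher by at least 3.82 ± 0.27 and 2.75 ± 0.19 log2. Stmn1, which destabilises microtubules, was bright in both groups, with 11.37, 11.54 and 11.73 against 8.83, 8.997 and 9.19, and was 5.8-fold higher with MCC (adjusted p = 7.09e-06).

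Chromosome condensation genes followed the same direction, and genes of mitotic exit did so in few cases. Among cohesin and condensin genes 7 of 13 were higher, 1 was lower and the median was 0.72 log2. The condensin subunits accounted for the larger of them, and Ncapd2 was 3.66-fold and Ncaph 5.04-fold higher. The anaphase-promoting complex itself was not called in any of its subunits, and only Ube2c and Cdc20 of 13 genes in that list were higher. That was 15.4%, beside 9.09% called higher among all genes, and the list median was 0.05 log2. Ube2c, the ubiquitin-conjugating enzyme of the complex, was at 7.92, 8.34 and 8.32 with MCC and 3.47, 3.65 and 4.46 with 102S. Cdc20, its mitotic activator, was 3.96-fold higher.

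Replication genes were higher as well. Of the genes for replication origins and the helicase 13 of 20 were called higher and 0 lower, with a median of 0.65 log2. The loading factor Cdc6 was at 6.11, 6.65 and 6.90 against 3.13, 3.20 and 4.05, a difference of at least 3.10 ± 0.32 log2. The helicase subunits Mcm7 and Mcm3 were well detected with both peptides and were 1.94-fold and 2.57-fold higher with MCC. At the fork 19 of 25 genes were higher, with a median of 0.77, and 12 of them without MCC replicate 3. Pclaf, a partner of the sliding clamp PCNA, was at 9.55, 9.84 and 9.79 with MCC and 5.68, 5.55 and 4.88 with 102S, a 20.6-fold difference. Top2a, which untangles replicated chromosomes, was at 8.91, 8.45 and 8.52 and 4.88, 4.92 and 4.85 and 13.4-fold higher, with 102S values close together. DNA ligase gene Lig1, the polymerase gene Pole and the primase gene Prim1 were 3.03-fold, 3.95-fold and 2.9-fold higher.

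Nucleotide supply showed a split. The subunit of ribonucleotide reductase made in S phase, Rrm2, was at 8.74, 9.17 and 9.69 against 4.61, 4.27 and 4.72 (25.4-fold). The Rrm2 mean with 102S lay just above the filter level, so that fold is uncertain. Its constant partner Rrm1 was 2.39-fold higher. Thymidine kinase Tk1 was higher by at least 2.96 ± 0.27 log2 and the dUTPase gene Dut was 2.21-fold higher. Across the whole list of 18 genes, which includes purine and pyrimidine synthesis, 7 were higher, 1 was lower and the median was 0.13. Leaving out 102S replicate 1, 102S replicate 2 or MCC replicate 2 left 4 higher. Of 15 chromatin factors that act at the fork 9 were higher, with a median of 0.68. Uhrf1, which recruits the maintenance DNA methyltransferase, was at 8.02, 7.89 and 8.43 against 4.78, 4.53 and 5.54 and was 8.95-fold higher. The helicase gene Hells and the histone methyltransferase gene Ezh2 were 5.93-fold and 3.02-fold higher.

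The entry point of the cell cycle showed less. In the list of G1/S cyclins, E2F and RB family genes 5 of 18 were higher, 0 lower, and the median was 0.15. Cks1b, a cofactor of cyclin-dependent kinases, was at 10.02, 10.67 and 10.76 against 7.44, 7.51 and 8.05 (7.03-fold), and E2f8, a repressive E2F made in S phase, was higher by at least 2.22 ± 0.26 log2. Cdk4, the G1 kinase, was 1.68-fold higher. Among cyclin-dependent kinase inhibitors and antiproliferative genes Cdkn2c was higher by 1.02 ± 0.19 log2 and Cdkn2d lower, with a difference of -0.83 ± 0.18 log2. Of 22 genes for DNA repair and the damage checkpoint 8 were higher and 0 lower. The homologous recombination genes Rad51ap1 and Rad54l and the checkpoint kinase gene Chek1 led them, higher by at least 3.33 ± 0.22, 2.01 ± 0.20 and 3.45 ± 0.24 log2. Of 16 p53 targets 0 were higher and 2 were lower, with a median of 0.16, and without 102S replicate 3 the count turned to 2 higher and 0 lower.

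The promoters of these genes are shown because mitosis and replication genes are known to be switched through different short elements. The CHR element, TTTGAA, and CCAAT boxes are background features of genes expressed in G2 and mitosis. E2F sites mark genes expressed at G1/S, and this class was searched as GCGCCAA together with the variant GCGGGAA and the further variant GCGCGAA. The sequences are from RefSeq's gene starts on GRCm38.p6 and run 5′ to 3′ on the gene's strand from 250 bases before the start to 50 after it. Motifs were read on both strands, the E2F forms were counted as 1 class, and matches of different motifs may share letters. A match is a run of letters and not a measured binding site. Capitals mark the CHR, CCAAT and E2F matches in every window. The windows are Ccnb2 at chr9:70421505-70421804, minus strand, Top2a at chr11:99024140-99024439, minus strand, Mki67 at chr7:135716330-135716629, minus strand, Pclaf at chr9:65890073-65890372, plus strand, Cdc6 at chr11:98907901-98908200, plus strand, and Fignl1, which encodes a recombination ATPase and was higher by at least 3.43 ± 0.20 log2, at chr11:11808913-11809212, minus strand.
Ccnb2: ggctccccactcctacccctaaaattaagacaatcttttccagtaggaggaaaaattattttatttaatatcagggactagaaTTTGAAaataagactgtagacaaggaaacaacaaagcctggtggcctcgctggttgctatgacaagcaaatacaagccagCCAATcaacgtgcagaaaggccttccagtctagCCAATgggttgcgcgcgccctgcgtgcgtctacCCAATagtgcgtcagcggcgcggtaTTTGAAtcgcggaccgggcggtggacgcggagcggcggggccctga
Top2a: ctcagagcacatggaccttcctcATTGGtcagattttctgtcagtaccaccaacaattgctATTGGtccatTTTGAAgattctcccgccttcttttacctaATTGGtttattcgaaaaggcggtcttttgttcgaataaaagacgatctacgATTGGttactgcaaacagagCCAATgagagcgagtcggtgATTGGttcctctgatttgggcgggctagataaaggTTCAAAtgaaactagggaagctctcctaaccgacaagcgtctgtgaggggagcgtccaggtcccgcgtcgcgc
Mki67: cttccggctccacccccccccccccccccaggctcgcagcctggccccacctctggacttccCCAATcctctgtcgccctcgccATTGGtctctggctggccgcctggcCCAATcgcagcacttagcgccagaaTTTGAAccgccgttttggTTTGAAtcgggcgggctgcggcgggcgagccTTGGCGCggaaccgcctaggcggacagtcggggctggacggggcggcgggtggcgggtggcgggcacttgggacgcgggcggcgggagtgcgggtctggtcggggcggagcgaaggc
Pclaf: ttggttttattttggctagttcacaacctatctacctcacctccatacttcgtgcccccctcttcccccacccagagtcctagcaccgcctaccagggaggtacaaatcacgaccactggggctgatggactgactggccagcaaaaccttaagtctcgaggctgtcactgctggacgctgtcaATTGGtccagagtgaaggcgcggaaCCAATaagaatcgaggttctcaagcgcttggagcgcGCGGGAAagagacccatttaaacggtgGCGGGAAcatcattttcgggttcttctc
Cdc6: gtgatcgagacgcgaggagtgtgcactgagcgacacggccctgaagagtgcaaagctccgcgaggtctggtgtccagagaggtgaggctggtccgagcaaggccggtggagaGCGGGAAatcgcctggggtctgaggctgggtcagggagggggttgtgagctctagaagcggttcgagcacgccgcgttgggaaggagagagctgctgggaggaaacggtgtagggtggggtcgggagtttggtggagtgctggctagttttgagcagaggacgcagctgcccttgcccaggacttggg
Fignl1: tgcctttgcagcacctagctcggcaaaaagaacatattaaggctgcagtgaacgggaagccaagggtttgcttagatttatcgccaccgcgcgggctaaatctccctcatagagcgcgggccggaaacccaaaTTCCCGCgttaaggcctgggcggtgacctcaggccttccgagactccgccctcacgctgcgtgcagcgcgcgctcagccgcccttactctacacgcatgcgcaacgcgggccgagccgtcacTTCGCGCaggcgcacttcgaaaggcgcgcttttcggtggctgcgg

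Ccnb2 held 2 CHR and 3 CCAAT matches, Mki67 2 and 3, and Top2a 2 and 6. Mki67 also held 1 E2F match, and Ccnb2 and Top2a held 0. Pclaf and Fignl1 held 2 E2F matches each and Cdc6 1. Pclaf also held 2 CCAAT matches, and none of these 3 held a CHR match. Among the 5154 tested genes with exactly 1 promoter window, 11.4% held a CHR match, 39.2% a CCAAT box, 4.79% both and 16.2% an E2F match. In the 479 such genes called higher the shares were 18.8%, 46.1%, 12.5% and 21.7%. In the 359 called lower they were 9.75%, 35.7%, 3.06% and 13.1%. The contrast between the lists was wider. Of 42 mitosis genes 57.1% held a CHR match, 50% held it together with a CCAAT box, and 14.3% held an E2F match. A CCAAT box was in 73.8% of these mitosis genes and in 52.3% of the replication genes. Of 44 replication and nucleotide genes 13.6% held a CHR match, 6.82% both, and 52.3% an E2F match. Sites for FOXO (GTAAACA) and AP-1 (TGAGTCA) were at 2.92% and 2.51% of the genes called higher, against 2.54% and 3.16% of all. Among the genes called lower they were at 3.9% and 1.67%, which are 14 and 6 genes.

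**Figure D2:**
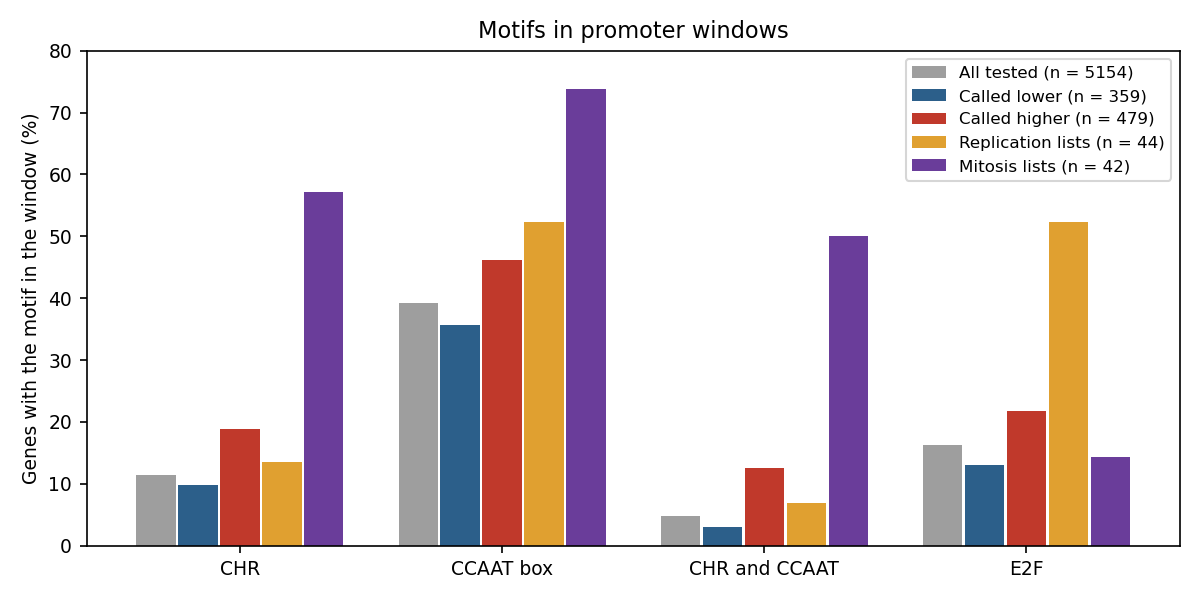
Share of genes, in percent, whose promoter window of 300 bases holds each motif, for all tested genes and for genes called lower, called higher, on the 3 replication lists and on the 3 mitosis lists. CHR reaches 57.1% in the mitosis lists and E2F 52.3% in the replication lists, against 11.4% and 16.2% of all tested genes.

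Most costimulatory receptors and ligands were higher with MCC. Of 17 tested genes 12 were higher, 1 was lower, and the median was 0.98 log2. Cd83, a surface molecule of activated lymphocytes and dendritic cells, was at 9.12, 9.44 and 8.98 with MCC and 4.58, 5.05 and 4.74 with 102S, a 20.9-fold difference (adjusted p = 1.68e-07). Tnfrsf4, which encodes OX40, was at 9.20, 9.67 and 9.45 against 6.42, 6.66 and 6.79 (7.05-fold), and the gene for its own ligand, Tnfsf4, was at 7.76, 7.22 and 6.63 against 4.45, 4.27 and 4.37. Receptor and ligand of this pair were thus both higher in the same sorted cells. Tnfrsf9, encoding 4-1BB, was at 7.74, 7.93 and 7.78 against 4.95, 5.72 and 5.73 (5.1-fold). Tnfrsf18, encoding GITR, was 3.1-fold and Icos, the inducible relative of CD28, 3.14-fold higher.

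Inhibitory receptors were higher beside the costimulatory ones. Of 10 tested genes 5 were higher and 1 was lower with MCC, with a median of 0.76. Ctla4, which competes with CD28 for its ligands, was at 9.51, 8.70 and 8.60 against 5.85, 5.99 and 4.63 (10.9-fold). Cd200, whose receptor restrains myeloid cells, was at 8.83, 8.97 and 8.47 against 5.43, 5.52 and 5.09 (10.6-fold). Pdcd1, encoding PD-1, was at 7.56, 7.58 and 7.35 against 5.03, 5.08 and 5.09, with 102S values that hardly differed, and was 5.39-fold higher. Pdcd1lg2, encoding its ligand PD-L2, was 5.25-fold higher. The member that was lower, Vsir, encoding VISTA on resting T cells, was at 8.48, 7.60 and 7.82 against 9.37, 9.42 and 8.58 (difference -1.16 ± 0.27, adjusted p = 0.0137). Its call was lost without 102S replicate 1, 102S replicate 2, MCC replicate 2 or MCC replicate 3, with adjusted p between 0.0527 and 0.0723.

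**Figure D3:**
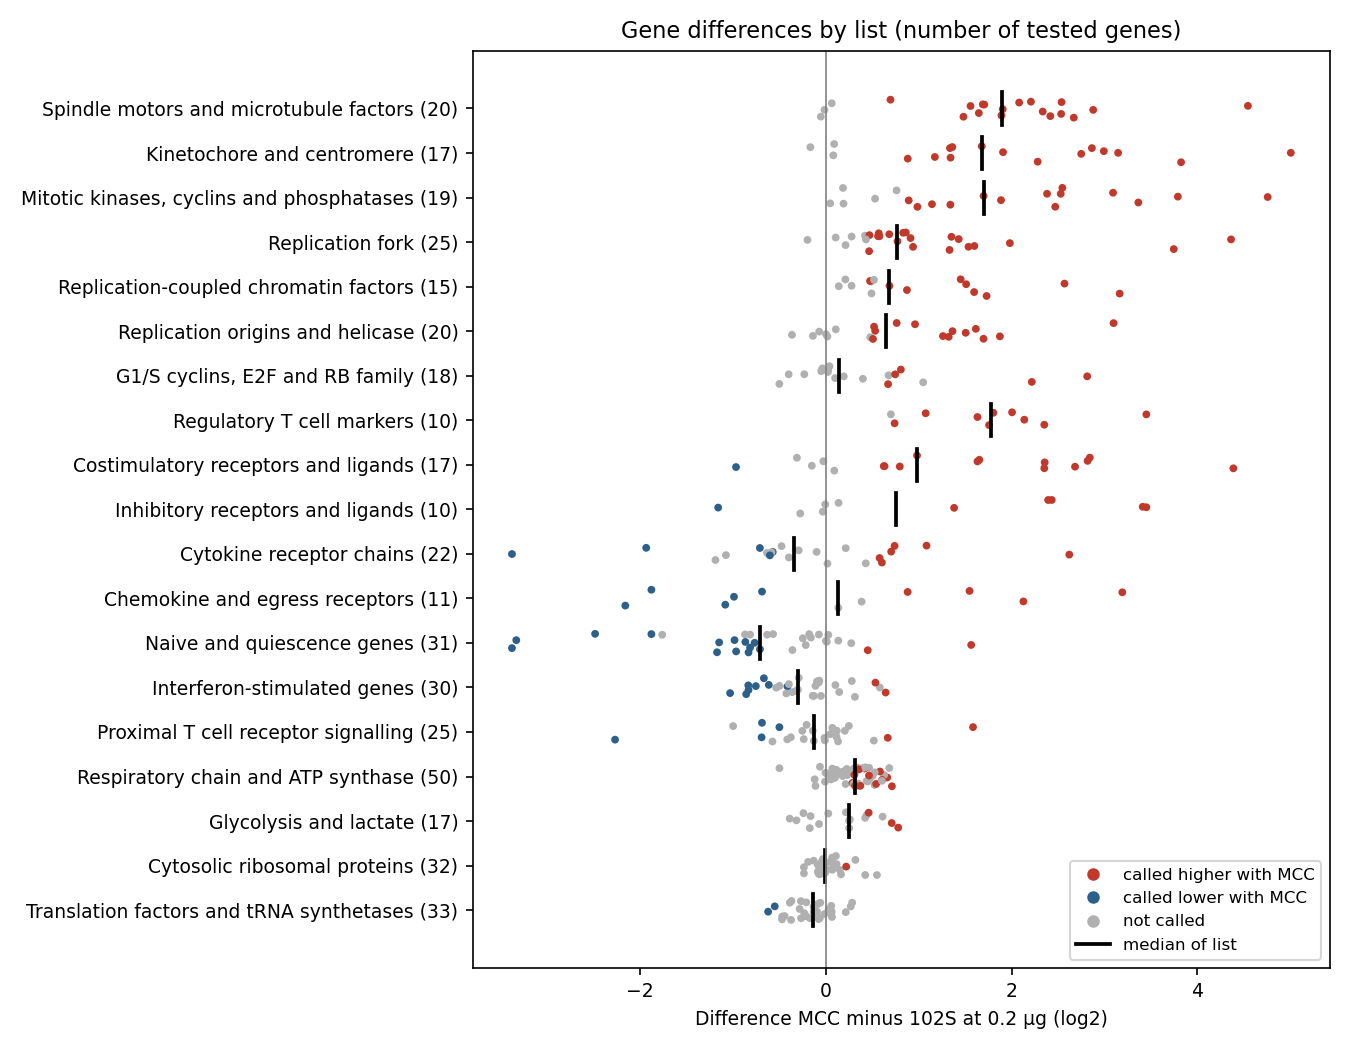
Difference MCC minus 102S at 0.2 µg, in log2, of every tested gene in 19 gene lists, with called genes in red or blue, genes not called in grey, and the median of each list as a bar. The mitosis lists have medians between 1.68 and 1.90, the costimulatory list 0.98, the naive list -0.71 and the ribosomal proteins -0.0085.

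Few cytokine genes were bright enough to test at this time. Of 30 on the array 10 passed the filter, and Ebi3 and Lta were the 2 called, both higher. Ebi3, a subunit of IL-27 and IL-35, was at 6.91, 7.34 and 6.73 against 4.77, 4.56 and 5.24 (4.4-fold), and Lta, encoding lymphotoxin alpha, was 1.87-fold higher. Il2, the growth factor of activated T cells, lay near or under the filter level at 4.39, 4.69 and 4.29 with MCC and 3.13, 3.27 and 3.57 with 102S. Without the filter its adjusted p was 0.0101, with groups that did not overlap. Both group means lay under the filter level, so no size is given. The effector cytokines Ifng, Il4 and Il21 lay between 2.46 and 3.21 log2 on all 6 arrays and were not called without the filter (adjusted p = 0.593, 0.525 and 0.55). Tnf was at 6.22, 6.20 and 6.44 against 5.96, 6.25 and 6.28 and was not called.

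Cytokine receptor chains differed in both directions. Il7r, the receptor chain for the survival cytokine of resting T cells, was at 7.97, 6.98 and 7.56 with MCC and 10.78, 11.06 and 10.81 with 102S, 10.4-fold lower (adjusted p = 1.94e-06). Il2rb, the chain shared by the IL-2 and IL-15 receptors, moved the other way, at 8.15, 7.88 and 7.33 against 5.42, 4.97 and 5.11, 6.15-fold higher. Il2ra, the high-affinity IL-2 receptor chain CD25, was dim in both groups, at 4.999, 5.26 and 5.59 against 4.32, 4.55 and 4.76. Its difference of 0.74 ± 0.21 passed (adjusted p = 0.0374) but lost the call when any of 7 arrays was left out (102S 2 µg replicate 1, 102S 2 µg replicate 2, 102S 2 µg replicate 3, 102S 0.2 µg replicate 1, 102S 0.2 µg replicate 2, MCC 0.2 µg replicate 2, MCC 0.2 µg replicate 3), with adjusted p up to 0.148. Il18r1, a chain of the IL-18 receptor, was at 6.83, 6.71 and 6.49 against 8.75, 8.56 and 8.53, 3.82-fold lower. Tnfrsf1b, encoding TNF receptor 2, was 2.12-fold higher, and Tgfbr1 and Il6st were higher by 0.60 ± 0.13 and 0.58 ± 0.11 log2. In the whole list of 22 chains 6 were higher and 5 lower, with a median of -0.35. The number lower ranged from 2, without 102S replicate 1 or without MCC replicate 3, to 9, without 102S replicate 3.

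Downstream of these receptors Socs3, a feedback inhibitor of IL-6 family and other cytokine signals, was at 6.68, 6.72 and 7.55 with MCC against 9.13, 10.69 and 9.58 with 102S. It was 7.05-fold lower, with the 102S arrays spread more widely than those of MCC. Pim1, a kinase induced by cytokine signals, was lower too, at 5.27, 4.92 and 5.19 against 6.04, 6.27 and 5.78. Of 19 JAK, STAT and SOCS genes 1 was higher and 4 were lower, with a median of -0.38, and 2 were lower without 102S replicate 2 or MCC replicate 2. With replicates 1 and 3 alone 0 were called, Socs3 and Pim1 included, and the median was -0.09. The list mean was 7.55, 7.21 and 7.27 with MCC and 7.73, 7.90 and 7.45 with 102S, and within each peptide it was lower on the arrays with a β-actin difference of 1.78 or more.

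Receptors that set where a T cell goes differed in most of the tested cases. Of 17 chemokine and egress receptors on the array 11 were tested. Of these 9 were called, against 16.1% of all genes, 4 higher and 5 lower. With replicates 1 and 3 alone 2 were lower. Cxcr5, which guides cells to B cell follicles, was at 6.95, 7.24 and 6.51 against 3.46, 4.05 and 3.62, higher by at least 3.19 ± 0.25 log2. Cxcr6 was at 7.59, 6.85 and 6.32 against 5.14, 5.24 and 4.01 (4.37-fold higher), and the prostaglandin E receptor gene Ptger4 was 2.92-fold higher. On the other side S1pr1, needed to leave the lymph node, was at 7.42, 6.95 and 7.08 against 9.35, 9.50 and 8.24 and 3.68-fold lower. Cxcr4 was at 5.89, 4.35 and 4.51 against 7.12, 7.18 and 6.92, a difference of -2.16 ± 0.35 with an MCC mean just above the filter level. Selplg, encoding the selectin ligand PSGL-1, was 1.61-fold lower. Ccr7, which brings naive cells into the lymph node, was at 11.20, 10.48 and 10.26 and 10.72, 10.82 and 9.9996 and was not called (adjusted p = 0.781).

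Adhesion receptors and actin regulators each held a few large differences. Cd44, the hyaluronan receptor and a standard activation marker, was at 9.50, 9.53 and 9.17 against 6.87, 7.36 and 6.98 and 5.05-fold higher with MCC. Nrp1, a semaphorin co-receptor, was at 6.40, 6.92 and 6.29 against 4.88, 4.47 and 4.86 (3.49-fold). Icam2 and Icam1, ligands of the integrin LFA-1, were 2.24-fold and 2.21-fold lower, and the integrin chain Itga6 differed by -0.68 ± 0.14 log2. The list of 20 integrins and adhesion receptors split into 4 higher and 6 lower, with 3 lower without 102S replicate 1 or MCC replicate 2 and 1 lower with replicates 1 and 3 alone. Of 36 actin regulators 5 were higher and 2 lower. Tiam1, an activator of the GTPase Rac, was at 7.63, 7.47 and 7.15 against 4.93, 4.81 and 4.70 (6.08-fold higher), and the filament-capping gene Capg was 4.01-fold higher. Without MCC replicate 2, 2 actin regulators were higher, and without 102S replicate 3, 6 were lower.

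Genes of naive and quiescent T cells were lower with MCC. Of 31 tested genes 13 were lower and 2 higher, against 7.02% called lower among all genes, and the median was -0.71 log2. Klf2, a transcription factor that maintains quiescence and drives S1pr1, was at 7.09, 6.72 and 7.03 with MCC and 10.36, 10.35 and 10.13 with 102S, 10.1-fold lower (adjusted p = 3.12e-07). Igfbp4, an insulin-like growth factor binding protein of naive T cells, was at 7.60, 7.47 and 8.04 against 9.79, 10.81 and 9.96 (5.6-fold lower). Klf13 and the RhoA inhibitor gene Ripor2 were 1.95-fold and 2.25-fold lower. Lef1, a transcription factor of naive T cells, was at 8.08, 7.12 and 6.74 against 8.62, 8.55 and 7.39, overlapping, and was not called (adjusted p = 0.17), though it was called lower in 6 of 24 alternatives. Gimap4 and Gimap3, GTPases linked to lymphocyte survival, were lower by 1.58-fold and 1.86-fold, and 2 of 5 members of that family were called.

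The level of the naive list also moved with the β-actin difference, and the part of RNA quality in the result was not tested. Its mean over genes was 9.05, 8.59 and 8.57 on the MCC arrays and 9.61, 9.62 and 9.18 on the 102S arrays, and on the 3 arrays with a β-actin difference of 1.78 or more it was lower than on the other arrays of the same peptide. With that difference as a covariate 20 genes of the list were lower and the median was -0.60. With replicates 1 and 3 alone 9 were lower and the median was -0.59.

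**Figure D4:**
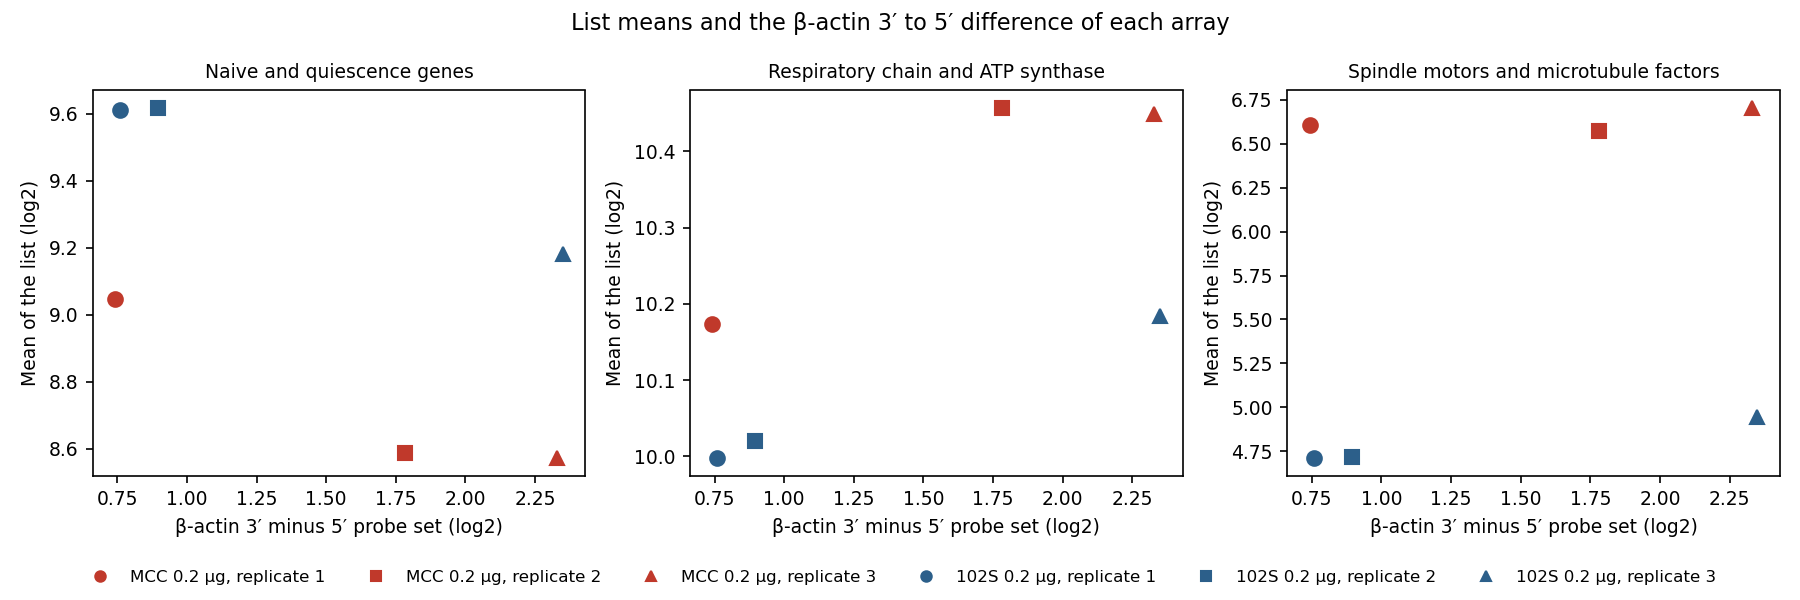
Mean log2 level of 3 gene lists on each array at 0.2 µg against the β-actin 3′ minus 5′ difference of that array in log2, MCC in red, 102S in blue, marker shape by replicate. Within each peptide the naive list is lower and the respiratory list higher on arrays with a β-actin difference of 1.78 or more, whereas the spindle list lies between 6.57 and 6.70 with MCC and between 4.71 and 4.94 with 102S on all arrays.

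Early signalling genes gave mostly small differences in both directions. Of 25 proximal T cell receptor signalling genes 2 were higher and 4 lower, with a median of -0.13, and with replicates 1 and 3 alone the count was 1 in each direction. Vav3, a guanine exchange factor downstream of the receptor, was at 7.68, 7.60 and 7.37 against 6.27, 6.08 and 5.55 (3-fold higher). Rasgrp2, an activator of Rap1, was at 6.59, 5.35 and 6.31 against 8.42, 8.58 and 8.06 (4.83-fold lower). Nfatc1 was higher by 0.67 ± 0.13 log2, while Nfatc3, Prkcq and the calcineurin gene Ppp3ca were lower, with differences of -0.50 ± 0.10, -0.69 ± 0.15 and -0.69 ± 0.16. Of 12 genes of the receptor complex and coreceptors 2 were higher and 1 was lower, with a median of 0.07. The 2 higher were Cd5 and Cd6. Cd5, a negative regulator whose level is known to follow receptor signal strength, was at 10.38, 10.05 and 9.98 against 9.16, 9.12 and 8.80. It was 2.16-fold higher (adjusted p = 0.000173), and Cd6 was 1.86-fold higher.

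Of 19 genes that restrain the pathway 3 were higher and 3 lower. The number lower was 1 without 102S replicate 1, 102S replicate 2, MCC replicate 2 or MCC replicate 3, and with replicates 1 and 3 alone 1 was called in each direction. Dgka, a diacylglycerol kinase that opposes Ras activation, was at 11.07, 10.76 and 10.69 against 11.94, 11.92 and 11.49 (1.92-fold lower), and its relative Dgkz was higher by 0.42 ± 0.08 log2. The phosphatase gene Ptpn11 was 1.86-fold higher. Of 9 ERK feedback genes 2 were higher and 1 was lower, with a median of 0.24. The 2 higher were Dusp6, at 9.91, 9.42 and 9.24 against 7.89, 8.23 and 7.74 (2.96-fold), and Dusp1, 2.66-fold higher. Among 16 immediate early genes 3 were higher and 0 lower. Nr4a1, a reporter of recent receptor signalling, was at 8.73, 8.22 and 8.26 against 7.82, 7.52 and 7.005 and Egr2 at 8.72, 8.53 and 8.55 against 7.86, 7.93 and 7.78, 1.93-fold and 1.68-fold higher. Myc was at 8.14, 7.31 and 7.30 and 8.33, 8.60 and 7.21, overlapping, and was not called (adjusted p = 0.405).

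Among transcription factors of T cell fate 7 of 25 were higher with MCC and 1 was lower. Irf4, which is induced in proportion to receptor signal, was at 8.09, 8.11 and 7.88 against 5.88, 6.07 and 5.29 (4.86-fold). Bcl6, the follicular helper regulator, was at 7.90, 7.86 and 7.77 against 7.01, 6.97 and 6.62 (1.97-fold), and its antagonist Prdm1 was at 3.71, 3.91 and 3.69 against 5.44, 5.45 and 4.76. Prdm1 had a mean under the filter level over the 12 arrays and was fitted only without the filter, where the difference was -1.45 ± 0.21 log2 (adjusted p = 0.000573). Its MCC mean lay under the filter level, so the size of this difference is a lower limit. Bcl6 and its antagonist thus differed in opposite directions. Ikzf4 and Mxd4, a MYC antagonist, were 3.35-fold and 3.38-fold higher, and Ahr, a ligand-activated factor, was higher by at least 1.97 ± 0.31 log2. Tbx21 and Foxp3, which define Th1 and regulatory T cells, lay under the filter level and were not called without it (adjusted p = 0.5 and 0.172). Gata3, the Th2 regulator, was at 7.51, 7.41 and 7.29 against 7.98, 7.88 and 7.66 and missed the threshold (adjusted p = 0.0507), which it passed in 10 of 24 alternatives.

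Several genes known as markers of regulatory T cells were higher in these cells, 9 of 10 tested, with a median of 1.78 log2, while Foxp3 was at 4.21, 4.28 and 3.61 with MCC and 3.47, 3.26 and 3.75 with 102S. Besides Ctla4, Capg, Tnfrsf18, Tnfrsf9 and Nrp1, given with their own groups, Izumo1r, encoding folate receptor 4, was at 9.34, 8.82 and 8.84 against 7.13, 7.36 and 7.23 and 3.38-fold higher. The summed linear level of all 14 markers was 3013 to 3582 with MCC and 874 to 980 with 102S. Whether cells of another type contributed to them was not tested.

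Death and survival genes shifted in part. Fasl, the death ligand, was at 3.39, 2.94 and 3.58 with MCC and 6.23, 5.90 and 5.90 with 102S, a difference of -2.71 ± 0.25 log2 whose size is a lower limit, because the MCC mean lay under the filter level. The BCL-2 family genes Bcl2l11, encoding the death-promoting BIM, and Bcl2l1, encoding the protective BCL-XL, were both higher, 1.83-fold and 2.04-fold. Casp4 and Casp1, inflammatory caspases, were at 6.59, 6.25 and 6.42 against 4.55, 3.91 and 4.44 and 6.54, 6.20 and 6.23 against 4.98, 4.47 and 4.50. In all 5 of 23 genes were higher and 1 lower. Cytotoxic and NK receptor genes differed in both directions, 2 of 11 higher and 4 lower. Klrd1, encoding the NK receptor subunit CD94, was at 6.45, 5.46 and 6.91 against 8.58, 8.46 and 8.84 (5.12-fold lower), and Prf1, encoding perforin, was 2.35-fold lower. Cst7 and Serpinb6b were 2.74-fold and 2.64-fold higher. The summed level of the 9 markers of CD8 T and NK cells, which include Klrd1 and Prf1, was 462 to 607 with MCC and 910 to 1070 with 102S, and its part in these differences was not tested.

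Interferon-stimulated genes leaned lower with MCC, 8 of 30 being lower and 2 higher with a median of -0.30. Igtp, an interferon-inducible GTPase, was at 9.81, 9.56 and 9.72 against 10.67, 10.56 and 10.37 (1.78-fold lower), and the transcription factor gene Irf1 was 1.79-fold lower. The number lower was 4 without 102S replicate 1, 3 without MCC replicate 2, 5 without MCC replicate 3, and 1 with replicates 1 and 3 alone. Of 11 clock genes 1 was higher and 2 were lower, with a median of -0.47. That was 27.3% called, beside 16.1% of all genes. The 2 lower were the repressor gene Nr1d2, at 7.19, 6.50 and 6.84 against 8.90, 8.67 and 8.52 (3.62-fold lower), and Cry1, 1.8-fold lower.

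Metabolic and protein synthesis genes differed little beside the cell cycle. Of 50 respiratory chain and ATP synthase genes 12 were higher and 0 lower, with a median of 0.31 log2. Ndufv2, a subunit of complex I, was at 10.27, 10.47 and 10.32 against 9.72, 9.79 and 9.74 (1.52-fold), and Cox6c, of complex IV, was higher by 0.58 ± 0.12 log2. This count moved with the arrays used. It was 7 without 102S replicate 1, 6 without 102S replicate 2, 22 without 102S replicate 3, 25 without MCC replicate 1, 4 without MCC replicate 2 and 6 without MCC replicate 3. The list mean was 10.17, 10.46 and 10.45 with MCC and 9.997, 10.02 and 10.18 with 102S, and it was higher on the 3 arrays with a β-actin difference of 1.78 or more than on the others of the same peptide. With that difference as a covariate 28 genes were higher, and with replicates 1 and 3 alone 1 was, at medians of 0.27 and 0.24.

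In glycolysis 3 of 17 genes were higher and 0 lower, with Pgk1, phosphoglycerate kinase, at 10.62, 10.63 and 10.82 against 9.95, 9.93 and 9.84 (1.71-fold). Of 26 genes of the pentose phosphate pathway and the TCA cycle 3 (11.5%) were higher and 0 lower, near the 9.09% called higher among all genes. Psat1, an enzyme of serine synthesis, was 1.92-fold higher. In cholesterol and fatty acid synthesis 2 of 24 genes (8.33%) were higher, also near the share of all genes. Of these Fabp5, a fatty acid binding protein, was at 8.48, 9.04 and 8.997 against 6.46, 6.24 and 6.28 (5.72-fold). Scd2, a fatty acid desaturase, was 1.99-fold higher. The count of the pentose phosphate and TCA list became 5 without MCC replicate 1, and that of the lipid list 5 without MCC replicate 1 and 4 without 102S replicate 3.

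Few genes of the translation machinery were called. Of 32 cytosolic ribosomal protein genes 1 was higher and 0 lower, with a median of -0.0085. Another probe set of that 1 gene was called in the opposite direction. Of 33 translation factors and tRNA synthetases 0 were higher and 2 lower. The 2 were Iars, the isoleucine tRNA synthetase, and Eif5, an initiation factor, with differences of -0.55 ± 0.11 and -0.62 ± 0.12. Of 38 ribosome biogenesis genes 2 were higher and 3 lower, with a median of -0.18, and of 36 proteasome subunits 2 were higher. Taf1d, a factor of RNA polymerase I and 1 of the 2 higher biogenesis genes, was 1.84-fold higher. Chaperones and the unfolded protein response gave 0 higher and 3 lower of 32, or 9.4%, near the 7.02% called lower among all genes. Without MCC replicate 1 the counts became 4 higher for ribosomal proteins, 6 higher for the proteasome and 4 lower for translation factors. Without 102S replicate 3 they became 4, 5 and 5, and 7 ribosome biogenesis genes were lower. In the other direction, without MCC replicate 2 there were 0 ribosomal protein and 0 proteasome genes higher and 0 ribosome biogenesis and 0 chaperone genes lower. With replicates 1 and 3 alone the same counts, and that of translation factors lower, were 0. A p above the threshold does not show equal levels, and with 3 arrays a group the median standard error of a difference was 0.18 log2.

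Some of the largest differences belonged to genes on none of these lists. Wnt10a, a secreted WNT ligand, was at 9.77, 9.71 and 9.60 with MCC and 5.29, 5.12 and 4.66 with 102S, 25.4-fold higher (adjusted p = 3.12e-07). Slc22a2, an organic cation transporter, was at 6.98, 7.38 and 7.05 against 3.70, 3.80 and 4.17, higher by at least 3.25 ± 0.18 log2. Pdlim4, a PDZ and LIM domain protein, showed the lowest difference of all called genes, at 5.86, 4.87 and 6.14 against 9.48, 9.07 and 9.24, 12.5-fold lower. Sgk1, a serum and glucocorticoid regulated kinase, was at 6.71, 5.51 and 6.50 against 9.53, 9.77 and 8.19 (7.6-fold lower). Dntt, terminal deoxynucleotidyl transferase, and Trib2, a pseudokinase, were 3.58-fold and 3.51-fold lower. Others among the 25 lowest were Ncmap, Myo6, Acss1, Iqgap2, Rflnb, Lncpint, L1cam, Bach1, Padi2 and Rasa3, with differences between -2.16 and -1.48 log2. These 25 were picked among called genes without overlap of the groups, a trait of 31.3% of all genes.

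Transcripts of antigen presentation also differed. H2-Oa, a chain of the class II modulator H2-O, was at 9.56, 9.43 and 9.13 against 6.65, 6.65 and 6.61 and 6.67-fold higher with MCC. Cd74, the invariant chain, was 2.61-fold higher and Ctss, cathepsin S, differed by 0.40 ± 0.08 log2. The class II chains H2-Aa and H2-Ab1 lay under the filter level, and H2-Eb1 was at 4.86, 4.65 and 5.09 against 4.83, 4.90 and 5.69 and was not called. Ighm, an immunoglobulin heavy chain gene, was lower with MCC, at 10.46, 10.41 and 10.55 against 11.53, 11.53 and 11.29 (1.97-fold). Cd79b, a chain of the B cell receptor, was higher, at 5.52, 5.71 and 5.96 against 4.28, 3.95 and 5.18 (adjusted p = 0.0227). That call was lost without 102S replicate 1, 102S replicate 2, MCC replicate 2 or MCC replicate 3 at 0.2 µg, with adjusted p between 0.0729 and 0.104. The defining B cell markers Cd79a, Ms4a1 and Pax5 were under the filter level.

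The same peptides were compared at 2 µg with other arrays, and the difference between the doses was itself tested. The interaction passed in 72 of 7945 genes (0.906%), and in 64 of them the difference at 0.2 µg had been called, 60 times higher and 4 times lower. In 62 of the 72 the difference between peptides was larger in size at 0.2 µg. The genes with the smallest p were Slc22a2, Myb, Tspan13, Mki67, H2-Oa, Cd83, Il18r1, Ift80, Wnt10a and Nusap1. In 9 of these 10 the 102S mean differed more between doses than the MCC mean did, Il18r1 being the exception.

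Myb, a transcription factor of progenitor and activated lymphocytes, was at 9.84, 9.75 and 10.02 with MCC and 7.996, 8.30 and 8.17 with 102S at 0.2 µg, a 3.28-fold difference, and at 10.16 ± 0.05 (SD, n = 3) and 10.21 ± 0.06 at 2 µg. The difference at the higher dose, -0.04 ± 0.11, was not called, and the interaction was -1.76 ± 0.15 (adjusted p = 0.000239). Ift80, a ciliary transport gene, followed the same course, at 10.48, 10.18 and 9.99 against 8.66, 8.41 and 8.24 at 0.2 µg and 10.19 ± 0.05 against 10.25 ± 0.14 at 2 µg, with an interaction of -1.84 ± 0.20. Tspan13, a tetraspanin, was at 12.62, 12.61 and 12.51 against 10.87, 10.92 and 10.95, and at 12.12 ± 0.03 against 11.60 ± 0.11 at the higher dose. Its difference narrowed from 1.67 ± 0.07 to 0.52 ± 0.07 log2.

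Cd83 and Wnt10a kept a called difference at the higher dose, of 1.34 ± 0.20 and 1.53 ± 0.25 log2, below their values at 0.2 µg, and the interactions were -3.05 ± 0.28 and -3.13 ± 0.35. For Cd83 the 102S mean was 7.60 ± 0.33 at 2 µg, against 4.58, 5.05 and 4.74 on the arrays at 0.2 µg. H2-Oa was at 9.21 ± 0.23 against 8.74 ± 0.14 at 2 µg, and that difference missed the threshold (adjusted p = 0.0575), with an interaction of -2.26 ± 0.20. Mki67, Nusap1 and Slc22a2 had 102S means under the filter level at 0.2 µg only, so their interactions of -3.78 ± 0.34, -2.82 ± 0.32 and -3.38 ± 0.26 are inexact. Mki67 was at 8.28 ± 0.59 with 2 µg of 102S. Il18r1 went the other way, lower with MCC at 0.2 µg and at 7.99 ± 0.18 against 7.71 ± 0.21 at 2 µg, with an interaction of 2.21 ± 0.21 (adjusted p = 0.0004).

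**Figure D5:**
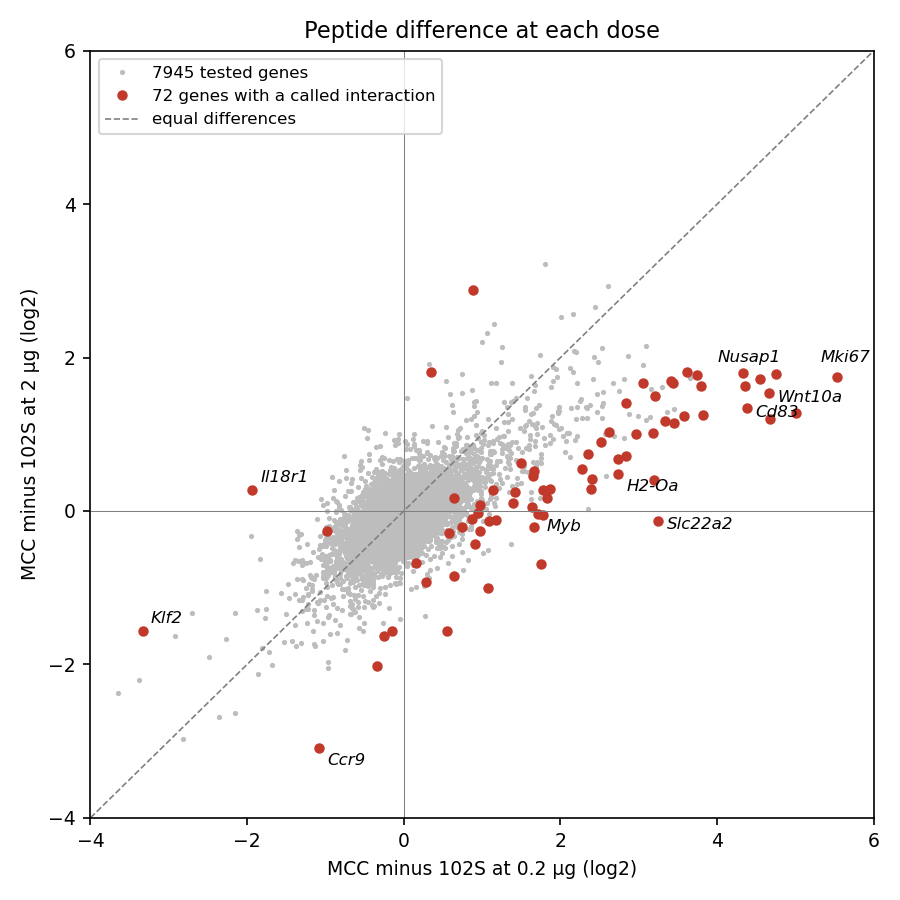
Difference MCC minus 102S in log2 at 2 µg against that at 0.2 µg for 7945 tested genes in grey, with the 72 genes of a called interaction in red and a dashed line where both differences are equal. Most red points lie to the right of the dashed line at positive values, and Klf2 and Il18r1 lie above it on the negative side.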

How the data were processed

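Transcripts were measured on 12 Affymetrix mouse arrays, 3 for each peptide and dose, of which the 6 at 0.2 µg are compared here. Trizol served to extract total RNA, of which 100 ng was labelled with biotin in a 3′ transcription step of 16 h, per the labels' protocols. The deposited table holds 1 log2 value per probe set and array. That it is log2 was read from the values, which run from 1.86 to 14.7 with array medians between 5.17 and 5.26. GCOS 1.4 appears in the submitters' processing notes. For the authors' summary and normalization of probes, the method was not given in the sources used here. A 3′ labelled array measures the 3′ end of a transcript, so shorter RNA lowers probe sets that lie farther from it.

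Values were used as deposited. Gene symbols came from the platform annotation, with 20351 probe sets of 1 symbol also matched to RefSeq by Entrez identifier, and 691 probe sets with several symbols and 1606 with none stay unnamed. The 64 control probe sets, and those with a mean over 12 arrays under the 40th percentile (log2 4.48, here the filter level), were left out, leaving 13556. The probe set with the highest mean stood for a gene. Of 524 called genes with several tested probe sets, 459 had every probe set on the same side, and 3, none of them named here, had another called in the opposite direction.

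A linear model in limma 3.58.1 under R 4.3.3 (lmFit, then eBayes with an intensity trend) gave each of the 4 groups a mean over all 12 arrays, which share 8 residual and 4.16 prior degrees of freedom. Tests were 2-sided, with Benjamini-Hochberg adjustment over 13556 probe sets and a threshold of 0.05. The ± values of differences are standard errors. Per-array values are given as replicates 1, 2 and 3 in that order, which is not an order in time. Where a group mean lay under the filter level a difference is a lower limit. Arrays carry no read depth, and their number limits the precision. On simulated arrays with 100 probe sets changed by 1 log2 and 100 by 2 log2, 70% and 96% were recovered in this comparison, with 8 false calls. The simulated spread was independent between arrays, whereas same-numbered real arrays of replicates 1 and 3 deviated together. Far fewer probe sets were changed than the 1939 called, so the number of false calls on the real arrays was not measured.

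The 52 gene lists, the key genes and the promoters shown were chosen with earlier results of these data known. Every count of called genes in a list stands beside 9.09% called higher and 7.02% called lower among all genes. Named genes are those with the 25 largest and 25 smallest MCC minus 102S values, if called and without overlap of the groups, up to 6 genes a list by smallest p, the key genes whatever their result, and the 10 interactions of smallest p. In a list with no called gene its members could be named. Bare names of dim markers serve the check of cell types. Alternatives covered normalization, filter, blocks, covariate, array weights, the 6 arrays alone and each array left out.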

Additional observations from a re-analysis of the deposited data

Results flagged for a closer look

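The difference between the peptides changed with the dose in 38 of the genes named with values here, by limma's interaction term (the peptide difference at the higher dose less the one at the lower dose, adjusted p under 0.05). Among genes of the cell cycle the term was negative in Mki67 (-3.78), Nusap1 (-2.82), Birc5 (-3.72), Rrm2 (-3.47), Top2a (-1.97), Rad51ap1 (-2.16), Chek1 (-2.30), Ccnb2 (-2.97), Pclaf (-2.73), Nuf2 (-2.58), Fignl1 (-1.76), Ube2c (-2.54) and Tk1 (-1.96), so the peptides stood farther apart at 0.2 µg. In those with a 102S mean under the filter level at 0.2 µg, such as Mki67 and Ccnb2, the term is inexact.

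Outside the cell cycle it was negative in Slc22a2 (-3.38), Myb (-1.76), Tspan13 (-1.15), H2-Oa (-2.26), Cd83 (-3.05), Ift80 (-1.84), Wnt10a (-3.13), Tnfrsf18 (-1.59), Ikzf4 (-2.44), Cxcr5 (-2.78), Cd200 (-1.71), Icos (-1.20), Fabp5 (-1.61), Bcl6 (-1.23), Lta (-1.33), Tnfsf4 (-2.13), Il2rb (-1.59), Tnfrsf9 (-1.61), Tnfrsf1b (-1.21), Il6st (-0.86), Serpinb6b (-1.29) and Pdcd1lg2 (-2.11). It was positive in Il18r1 (2.21), Klf2 (1.77) and Ighm (0.71), all lower with MCC at 0.2 µg. At 2 µg Klf2 was lower by less, and Il18r1 and Ighm were not called.

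At least 1 array left out ended the interaction call of Ube2c, Tnfsf4, Il2rb, Tnfrsf9, Tnfrsf1b, Ighm, Il6st, Tk1, Serpinb6b and Pdcd1lg2. Array groups of 3 were too small to test for an array far from the others.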

How the results depend on the processing

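The count of 1939 probe sets called for MCC against 102S at 0.2 µg moved with the model of array quality and the number of arrays. It was 3645 with the β-actin 3′ minus 5′ difference as a covariate, 3006 with Xist-high arrays as a block, 8259 with array weights, which ran from 0.195 to 6.21, and 1071 with the 6 arrays alone. With only replicates 1 and 3 at 0.2 µg, an alternative chosen after the data were seen, it was 640. Leaving out single arrays gave counts between 1051 (without MCC replicate 2 at 0.2 µg) and 2785 (without MCC replicate 1 at 0.2 µg), beside 1149 and 1147 without 102S replicates 1 and 2 at 0.2 µg and 1241 without MCC replicate 3. The interaction count of 104 probe sets was 285 with the covariate, 245 with the Xist block, 6729 with array weights, 31 with replicates 1 and 3 only, and 62 to 142 with single arrays left out. Quantile normalization, median centring, no filter, a 60th percentile filter, no intensity trend and the Xist-low arrays alone kept both counts within 1.5 times.

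With the replicate number as a block the comparison called 3496 probe sets and the interaction 321. Same-numbered arrays at 0.2 µg deviated together for replicate 1 (r = 0.79) and replicate 3 (r = 0.66) but not for replicate 2 (r = -0.29), so the numbers were not taken to pair the arrays.

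Of the 150 genes named as called with values here, 147 kept the call with any array left out and 27 lost it with replicates 1 and 3 only. Cd4, which was not called, was called lower with array weights (-0.39 log2). Of the other named genes without a call, Gata3 was called lower in 10 of the 24 alternatives, Lef1 in 6 and Myc in 2 (array weights, and without 102S replicate 3 at 0.2 µg), and Ccr7 was called higher with the β-actin covariate.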

Other observations

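Lysosome and autophagy genes gave small differences in both directions, 2 of 24 higher and 4 lower with MCC, with a median of -0.16 log2. Among all genes 9.09% were called higher and 7.02% lower. Npc2, a lysosomal cholesterol carrier, was at 11.60, 11.64 and 11.65 with MCC against 12.05, 12.06 and 12.09 with 102S, and its difference of -0.44 ± 0.06 passed the test (limma, adjusted p = 0.000739). Lamp1, a lysosomal membrane protein, was at 9.35, 9.38 and 9.46 against 9.89, 9.88 and 9.79, and Atg3, an enzyme of autophagosome formation, at 9.16, 8.90 and 8.82 against 9.53, 9.64 and 9.37. The protease gene Ctsb moved the other way, at 9.17, 9.25 and 9.14 against 8.39, 8.62 and 8.38, higher by 0.72 ± 0.13.

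Of 46 mitochondrial ribosomal protein genes 5 were higher and 0 lower, with a median of 0.22. That was 10.9%, near the 9.09% called higher among all genes. Mrpl27 was at 9.14, 9.78 and 9.52 against 8.54, 8.68 and 8.57, higher by 0.88 ± 0.18. The number higher was 14 without MCC replicate 1, 3 without 102S replicate 2, and 2 without MCC replicate 2 or replicate 3.

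Beyond the named genes, 150 called probe sets had no gene symbol or several and are not named. Of 2920 genes with several tested probe sets, 524 were called, and in 244 of these a further probe set was called as well.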
